A study of Mus musculus with 9 samples.

Results

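The cells described here are CD4-gate thymocytes that held RNA of the chemokine receptor Ccr9 together with RNA of the CD8 coreceptor, although they had been sorted as cells with CD4 and no CD8 on the surface. A cell was a member if it had at least 1 unique molecular identifier (UMI, a count of an RNA molecule) of Ccr9, at least 2 UMIs over Cd8a and Cd8b1, none of S1pr1, fewer than 2 of Egr2 plus Egr3, and fewer than 5 over 6 cell cycle genes (Mki67, Top2a, Cdk1, Birc5, Ube2c and Ccnb2). It also needed at least 500 genes, at most 10% mitochondrial UMIs and 1 clear antibody hashtag. This gave 346 cells, 163 wild type (WT) and 183 I173A, of 5773 WT and I173A cells in the CD4 gate and of 26990 barcodes in the series.

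The study compared thymocytes of WT mice with those of mice whose CD3ε, a signalling chain of the T cell receptor (TCR) complex, carries the I173A substitution. The thymuses came from adult female mice, and neither strain, age in weeks nor the number of mice per genotype is given in the sources used here. Both genotypes were stained with different oligonucleotide-tagged antibodies, sorted into CD4, CD8 and double-positive (DP) gates, and run as 3 libraries of 10x Genomics 5′ RNA, each with a TCR library. Each genotype is therefore 1 sample per gate, no test was possible, all intervals are 95% intervals for counting error only, and "higher" and "lower" describe these samples.

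DP thymocytes rearrange the TCR α chain while they express CD4, CD8 and the recombinase genes Rag1 and Rag2. Cells whose receptor recognises self peptide on an MHC molecule lower CD8 first and pass through an intermediate stage, before they either keep CD4 under the transcription factor ThPOK (gene Zbtb7b) or silence Cd4 and express CD8 again under Runx3. Ccr9 is carried by DP and early selected thymocytes and is lost later, when Klf2 and S1pr1 prepare a cell to leave the thymus.

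Genotype was read from the hashtag oligonucleotides, shown here because every comparison of genotypes rests on them. Hashtag 4 marked WT and hashtag 6 marked I173A, and a cell was assigned when 1 of them had at least 10 counts and at least 4 times each other hashtag.
Hashtag 4: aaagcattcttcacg
Hashtag 6: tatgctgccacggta

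The genes that stand at the ends of the lineage choice are Zbtb7b and Runx3, and Runx proteins bind the core sequence TGTGGT, which reads ACCACA on the other strand. Zbtb7b lies at chr3:89377644-89393673 and Runx3 at chr4:135120645-135177990, while the genes of the rule lie at chr9:123767211-123783457 (Ccr9) and, near each other, at chr6:71373427-71379171 (Cd8a) and chr6:71322788-71337492 (Cd8b1). In the 250 bases before each annotated start (RefSeq, GRCm38.p6), 14.0% of all 32851 windows held this core on either strand. The windows below are shown because the levels of these genes differed in opposite directions along CD8 RNA among the members, and capitals mark the core. The upstream start of Runx3 (chr4:135120395-135120644, plus strand) had 2 matches and the other start of Runx3 had 0. The downstream start of Zbtb7b (chr3:89387672-89387921, minus strand), inside the gene's annotated span, had 1 match and its other start had 0. A match is a description of these letters and not a binding site.
Runx3 upstream start: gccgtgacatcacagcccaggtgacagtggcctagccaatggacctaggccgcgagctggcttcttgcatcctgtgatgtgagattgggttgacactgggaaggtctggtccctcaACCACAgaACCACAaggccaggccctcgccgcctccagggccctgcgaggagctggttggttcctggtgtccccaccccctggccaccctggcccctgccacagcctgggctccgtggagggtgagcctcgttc
Zbtb7b downstream start: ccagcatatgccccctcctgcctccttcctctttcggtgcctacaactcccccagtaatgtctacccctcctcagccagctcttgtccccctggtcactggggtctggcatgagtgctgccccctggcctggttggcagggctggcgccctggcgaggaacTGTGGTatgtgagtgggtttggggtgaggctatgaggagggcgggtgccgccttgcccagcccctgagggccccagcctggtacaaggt

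Members made up 5.24% of WT cells of the CD4 gate (163 of 3109, interval 4.49 to 6.09) and 6.87% of I173A cells (183 of 2664, 5.94 to 7.90). The ratio of the shares, I173A to WT, was 1.31 (1.06 to 1.63), and over all alternative settings it stayed between 1.16 and 1.47. It was lowest where members needed a Cd8a UMI (1.16, 114 WT and 113 I173A members) or 3 CD8 UMIs (1.18, 106 and 107). No interval is given for these settings. The share depends on where the limits lie. In the same base population, 580 WT and 533 I173A cells had Ccr9 and no CD8 RNA, and 175 and 180 had exactly 1 CD8 UMI, just outside the limit. Just inside it, 57 WT and 76 I173A members had exactly 2 CD8 UMIs, and 30 and 22 had exactly 1 Ccr9 UMI.

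The 3 RNA libraries held 8670 to 9239 barcodes and 31269793 to 65934387 UMIs, with 4.20% to 5.72% of barcodes left out for several hashtags. Members summed to 793865 UMIs in WT and 971702 in I173A, with medians of 4567 and 5134 UMIs per cell against 6079 and 5786.5 in all CD4-gate cells of the same genotype. Of the 346 members' barcodes, 6 also occurred in the CD8 library and 2 in the DP library. Of all 9081 barcodes of the CD4 library, 124 and 109 did so.

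The label of transitional CD4 cells was checked against Rora, Satb1 and Tox, the markers that the membership rule did not use, with levels in CPM (UMIs of the gene in a class, scaled to 1e6 UMIs of that class). For comparison, mature CD4 cells are 1908 cells of the same gate with S1pr1 and without Ccr9, and the same RNA rule was applied to the DP gate (4055 cells) and the CD8 gate (1909 cells). Rora, a nuclear receptor, stood at 50.4 CPM in WT and 58.7 in I173A members, against 11.9 and 17.6 in mature CD4 cells. In the DP gate Rora stood at 9.2 and 8.5, and in the CD8 gate at 19.96 and 19.4, so that members were above these 3 populations in both genotypes. Tox, a factor needed for the CD4 lineage, stood at 503 and 478 CPM in members and at 191 to 204 in the same 3 populations. The nearest cells, those of the CD4 gate that met the rest of the rule with 0 or 1 CD8 UMI, had Rora at 22.0 and 25.9 CPM (0 UMIs) and 42.3 and 33.9 (1 UMI), and Tox at 493 and 548 and at 475 and 587. High Tox was therefore shared by Ccr9 cells with and without CD8 RNA and is not particular to the members. Satb1, a chromatin organiser of thymocytes, stood at 3229 and 2890 CPM in members against 787 and 878 in mature CD4 cells, but at 3032 and 2772 in the DP gate, so it did not set members apart from DP cells.

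The members were not uniform. They were divided, after their values had been seen, by the summed UMIs of 5 genes of the DP stage (Rag1, Rag2, Arpp21, Dntt and Ptcra). At least 3 such UMIs, called DP-stage RNA here, were found in 34 WT members (20.9%, 14.9 to 27.9) and 25 I173A members (13.7%, 9.04 to 19.5), and the ratio of these shares was 0.655 (0.375 to 1.13), an interval that includes 1. No DP-stage UMI was found in 103 WT and 128 I173A members, and 1 or 2 in 26 and 30, which were kept with the remaining cells. The remaining cells were split by CD8 RNA into those with 2 UMIs (56 WT and 76 I173A), with 3 to 4 (39 and 37) and with 5 or more (34 and 45).

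**Figure D1:**
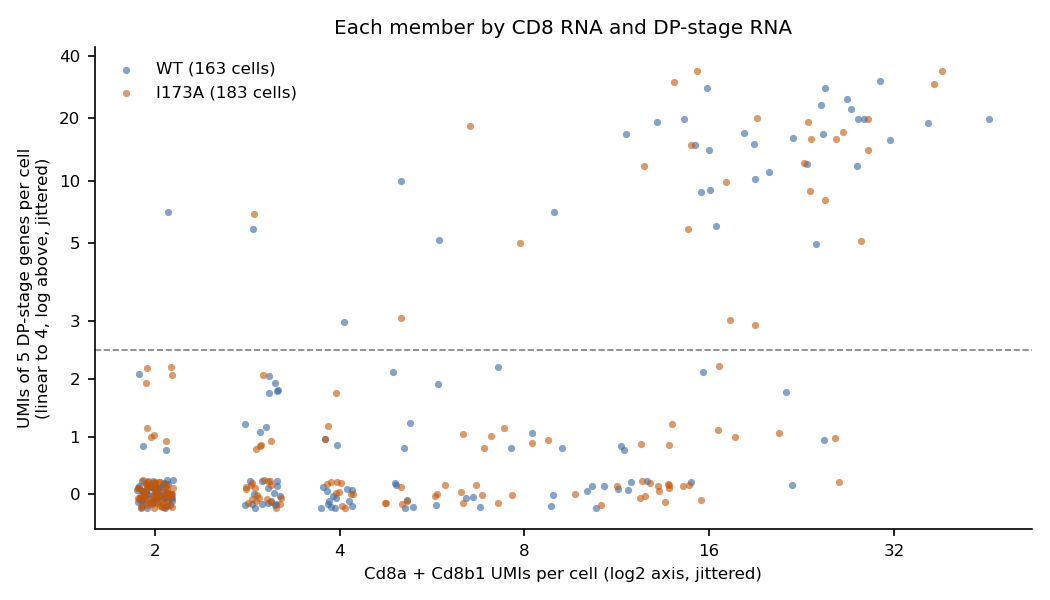
Each point is a member, placed by its Cd8a plus Cd8b1 UMIs (horizontal, log2 axis) and its summed UMIs of 5 DP-stage genes (vertical, linear to 4 and logarithmic above), with small jitter; the dashed line separates cells with 3 or more DP-stage UMIs. Most members with few CD8 UMIs sit at 0 DP-stage UMIs, the 34 WT and 25 I173A cells above the line lie mainly at high CD8 RNA, and of the 20 WT and 15 I173A cells with 20 or more CD8 UMIs 1 of each genotype sits at 0.

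The members with DP-stage RNA were compared with the cells that the same rule took from the DP gate. The 5 genes of the split are high there by construction: Rag1 stood at 1375 CPM in WT and 1018 in I173A, beside 1563 and 1424 in the DP gate, and Dntt, the polymerase that adds bases at TCR junctions, at 1799 and 1309 beside 1717 and 1539. DP-stage genes that the split did not use were also high. Endou stood at 654 and 540 CPM against 824 and 895 in the DP gate and 0 to 5.4 in the other 3 strata. Aqp11, a water channel gene, stood at 837 and 748 CPM against 885 and 927 in the DP gate and 0 to 18.4 in the other strata. Other genes lay between the DP gate and the remaining members. Il7r stood at 202 and 114 CPM against 4.6 and 6.1 in the DP gate, and Ccr7 at 96.2 and 72.7 against 11.9 and 15.7. Their median depth, 2677.5 and 3185 UMIs, was also near that of the DP-gate cells (2710 and 2756). Zbtb7b was represented by 9.6 CPM in WT and by no UMI in I173A, and Nr4a1 by no UMI in either. These cells carried Cd4 at 1087 and 790 CPM, against 918 and 902 in the DP gate.

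Among the other members, several genes of the CD4 lineage and of the TCR response were lower with more CD8 RNA. With the genotypes pooled, 5 of 11 CD4 lineage genes (Cd40lg, Zbtb7b, Gata3, Lef1 and Cd4) and 6 of 23 TCR signal genes were at least 2-fold lower in cells with 5 or more CD8 UMIs than in cells with 2, and 0 of either list were 2-fold higher. Their median log2 ratios were -0.35 and -0.48 beside 0.048 over all 4041 genes with enough counts, of which 1.48% were at least 2-fold lower and 1.19% at least 2-fold higher. The CD4 lineage list did not move as a whole, since 4 of its 11 genes had ratios above 1. Zbtb7b was 96.4 CPM in WT and 127 in I173A cells with 2 CD8 UMIs. With 3 to 4 CD8 UMIs it was 81.3 and 72.4, and with 5 or more it was 23.1 and 9.1. Pooled over genotypes, the level at 5 or more was 0.134 of that at 2 (0.0480 to 0.304). Cd40lg, a helper T cell ligand, went from 108 and 180 CPM to 5.8 and 27.3 over the same ends. Itm2a, a membrane protein gene that marks positive selection, went from 1985 and 3630 CPM to 744 and 704 (ratio 0.247, 0.218 to 0.280). Gata3, which acts upstream of Zbtb7b, had a ratio of 0.351 (0.206 to 0.569), and Cd4 itself one of 0.476 (0.378 to 0.595).

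Runx3 was ordered the other way. It stood at 78.3 CPM in both genotypes with 2 CD8 UMIs, at 119 and 99.5 with 3 to 4, and at 133 and 182 with 5 or more, a ratio of 2.05 (1.41 to 2.96) between the ends. The CD8-gate cells had 114 CPM in WT and 122 in I173A. Genes of the mature CD8 programme were not at their CD8-gate level there. Nkg7, a granule protein gene, stood at 28.8 and 45.4 CPM in members with 5 or more CD8 UMIs against 659 and 655 in the CD8 gate, and Itgae, the integrin subunit CD103, had no UMI in them against 247 and 252 CPM. Rora was also higher at the upper end (ratio 2.66, 1.48 to 4.83).

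Zbtb7b, Cd40lg, Itm2a and Gata3 were among the 60 genes that were lower in cells with 5 or more CD8 UMIs, with Ccr8 (0.110), Gpr183 (0.147) and Tnfrsf4 (0.187), a costimulatory receptor of the TNF receptor family. Runx3, Rora, Isg15 (3.86), Lipa (4.12), which encodes lysosomal acid lipase, and Slc16a5 (4.81) were among the 48 higher genes. Igfbp4 had the lowest ratio, 0.0186, but 1 cell held 42.4% of its UMIs in WT members and 1 cell 40.5% in I173A members.

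**Figure D2:**
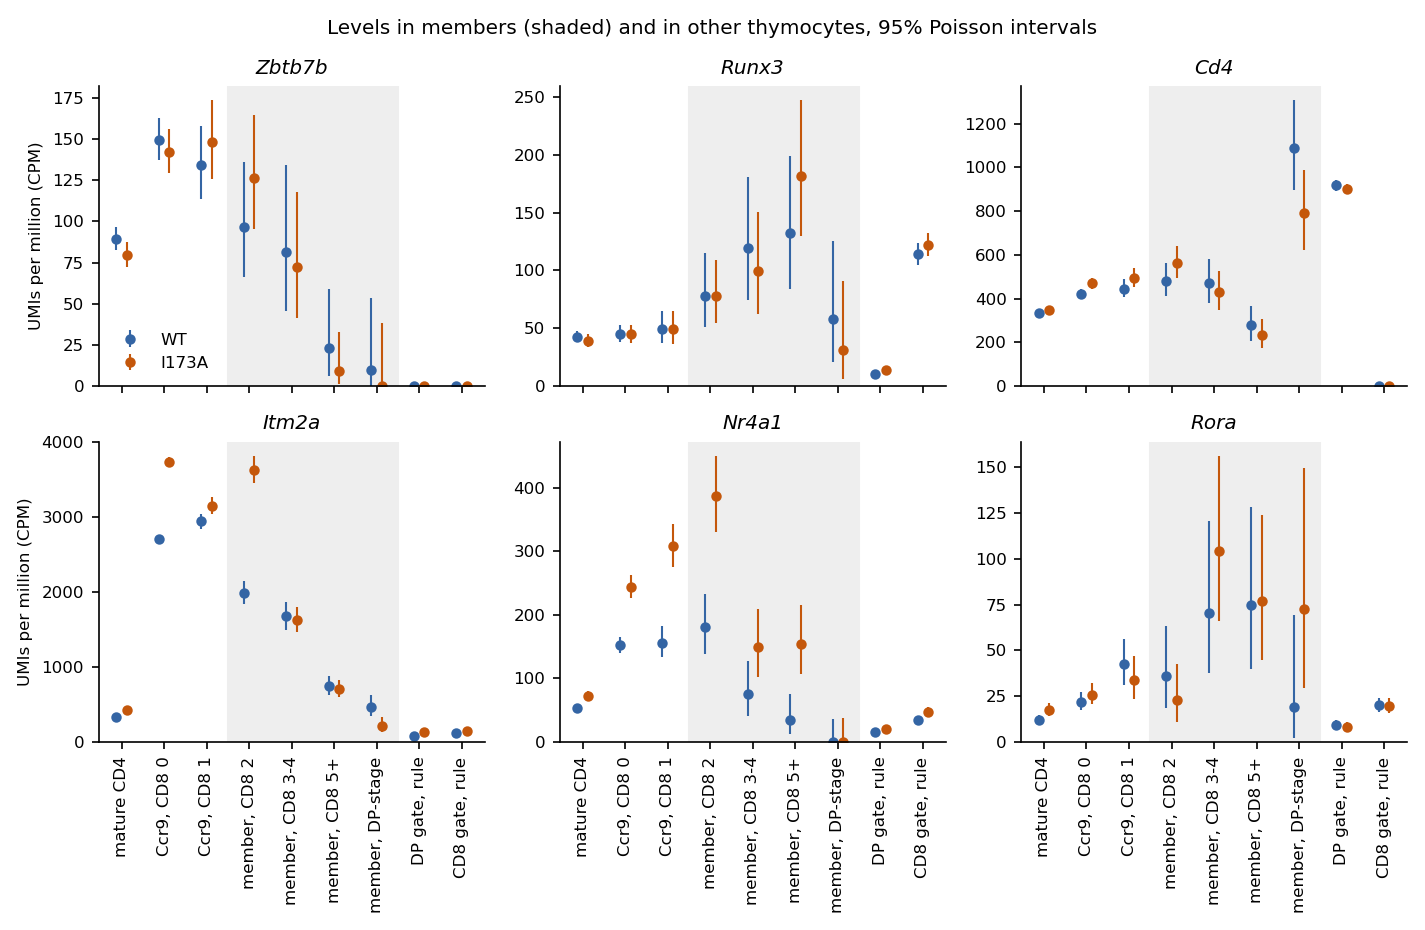
Level (CPM, with 95% Poisson intervals) of Zbtb7b, Runx3, Cd4, Itm2a, Nr4a1 and Rora in WT and I173A cells of 9 classes; the 4 shaded classes are the strata of the members, by CD8 UMIs and, at the right, with 3 or more DP-stage UMIs. Zbtb7b lies at 96.4 and 127 CPM with 2 CD8 UMIs and at 23.1 and 9.1 with 5 or more, while Runx3 lies at 78.3 in both genotypes and at 133 and 182.

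Both lineage factors were read in each cell. A Zbtb7b UMI was found in 31 WT and 43 I173A members, a Runx3 UMI in 42 and 60, and both in 7 and 14. At these depths, the absence of a UMI in a cell does not show the absence of the RNA.

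The 2 CD8 genes did not contribute equally. In mature CD4 cells, which should lack CD8, Cd8b1 gave 287 UMIs and Cd8a 15 in WT, and 258 and 15 in I173A, that is 19.1 and 17.2 Cd8b1 UMIs per Cd8a UMI. In members with 2 CD8 UMIs the ratio was 3.67 and 3.00. It was 1.69 and 5.53 with 3 to 4, and 1.28 and 1.08 with 5 or more, beside 1.45 and 1.38 in the DP gate and 1.23 and 1.29 in the CD8 gate. The excess of Cd8b1 over Cd8a in mature CD4 cells was thus not the proportion seen where the CD8 genes are abundant. At least 2 CD8 UMIs were found in 5.23% of WT and 6.69% of I173A mature CD4 cells (median depths 6368 and 6146 UMIs), against 17.8% and 20.4% of Ccr9 cells that met the rest of the rule. With each cell thinned to 3000 UMIs, which left out 220 WT and 171 I173A cells of the gate as too shallow, the shares were 2.27% and 2.30% in mature cells and 11.9% and 14.1% in Ccr9 cells. Members with exactly 2 CD8 UMIs lie nearest to the limit of the rule. By Cd8b1 UMIs per Cd8a UMI, they were also nearest to mature cells in WT (3.67). In I173A the members with 3 to 4 were nearer (5.53 against 3.00), so cells above 2 CD8 UMIs are not free of background either. At full depth the I173A share was above the WT share in mature cells too, so this direction was not particular to Ccr9 cells. After thinning, the shares of mature cells were close to each other. Cells with at least 1 Cd8a UMI were 114 of 163 WT and 113 of 183 I173A members.

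Set against mature CD4 cells, the members had lower levels of many late maturation genes and higher levels of genes of earlier stages. A contrast of this kind follows in part from the selection, since the mature cells were chosen by S1pr1 and the absence of Ccr9; the 12 genes of the rules were left out. Of 8334 genes, 3.4% were at least 2-fold higher in members in both genotypes and 2.72% at least 2-fold lower. In the list of maturation and egress genes, 18 of 30 were lower and 0 higher, with a median log2 ratio of -1.18 beside 0.25 over all genes, and 7 of the 30 had ratios above 1. Klf2, which drives S1pr1, stood at 161 CPM in WT and 94.7 in I173A members against 1025 and 1064 in mature cells. H2-K1, an MHC class I gene, stood at 640 and 708 CPM against 2651 and 2518. Ly6a, Ly6c1 and Emc9 were nearly absent from members, with 10 and 14, 0 and 2, and 1 and 2 UMIs.

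Genes of the interferon response followed the maturation genes, with 9 of 17 lower and 0 higher (median -1.26). Ifit3, an interferon-induced gene, had 1 UMI in WT and 2 in I173A members, against 56.5 and 36.2 CPM in mature cells. Among the higher genes, 10 of the 14 DP-stage genes that entered were at least 2-fold higher. For some of them the UMIs came mainly from the stratum with DP-stage RNA. Endou, which the split did not use, stood at 88.2 and 56.6 CPM in all members but at 0 to 5.4 in the other 3 strata. Cd24a, a surface glycoprotein of immature thymocytes, did not depend on that stratum, with 145 and 146 CPM in members, 110 to 154 in the other strata and 4.8 and 5.9 in mature cells.

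Receptors that guide thymocytes into the medulla took intermediate or high values. Ccr4 stood at 95.7 CPM in WT and 80.3 in I173A members, against 6.9 and 6.1 in mature cells and 14.6 and 20.3 in the DP gate. Ccr9 cells of the CD4 gate with no CD8 UMI had 84.4 and 86.9 CPM and those with 1 had 99.4 and 107, so the level was shared by Ccr9 cells and is not particular to the members. Ccr7, the receptor for the medullary chemokines, stood at 436 and 398 CPM, below the 810 and 833 of mature cells and above the 11.9 and 15.7 of the DP gate. The interleukin 7 receptor gene Il7r stood at 406 and 410 CPM against 306 and 402, and the survival gene Bcl2 at 343 and 280 against 189 and 232. Both lay far above the DP gate, at 4.6 and 6.1 CPM for Il7r and 23.2 and 28.4 for Bcl2.

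Against the cells that the same rule took from the DP gate, 3.45% of 8598 genes were higher and 7.8% lower in members in both genotypes. Among the TCR signal genes, 11 of 23 were higher and 2 lower, and among maturation genes 14 of 25 were higher and 1 lower. Itm2a stood at 1444 and 2174 CPM in members against 76.3 and 134, and Ccnd2, a cyclin of the G1 phase, at 147 and 184 against 1.3 and 2.0. Of the DP-stage genes, 13 of 16 were lower. The lowest ratios belonged largely to histone genes of the Hist1 cluster, whose near-identical copies make their counts uncertain; Hist1h2ab stood at 12.6 and 8.2 CPM against 279 and 277.

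Against CD8-gate cells that met the same RNA rule, 3.93% of 8017 genes were higher and 2.72% lower. In the CD4 lineage list, 9 of 13 were higher and 0 lower: Cd4 stood at 514 and 481 CPM against 0.4 in both genotypes of the CD8 gate, and Zbtb7b at 65.5 and 75.1 against no UMI. In the CD8 lineage list, 9 of 10 were lower, with Runx3 as the gene that was not (97.0 and 102 CPM against 114 and 122). Runx1, the other Runx factor of thymocytes, stood at 215 and 199 CPM against 41.3 and 38.1.

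I173A and WT members were then compared with each other. Of 5665 genes with at least 50 UMIs, 3.67% were at least 1.5-fold higher and 2.79% at least 1.5-fold lower in I173A than in WT, and the median log2 ratio was close to 0. Cd3e itself, which carries the substitution, was 1746 CPM in WT and 1757 in I173A, a ratio of 1.01 (0.937 to 1.08). In the list of 28 TCR complex and proximal signalling genes, 0 passed 1.5-fold in either direction. Zbtb7b (1.15, 0.793 to 1.67), Runx3 (1.05, 0.772 to 1.43), Tox (0.9501, 0.829 to 1.09) and Rora (1.16, 0.764 to 1.79) had ratios whose intervals include 1. The ratio of Zbtb7b was on the other side of 1 when members needed 3 CD8 UMIs (0.771) and after thinning to 3000 UMIs (0.457), so these data give it no stable direction. Smaller differences in these genes were not detectable at this depth.

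The membership rule kept only cells with fewer than 2 UMIs of Egr2 plus Egr3, in both genotypes. Genes of the TCR response were therefore read without the cells above that limit. Nr4a1, an immediate target of TCR signals, had the highest ratio among the genes named by ratio. It stood at 101 CPM in WT and 242 in I173A, a ratio of 2.40 (1.85 to 3.13). Few cells carried it, 12 WT and 22 I173A, and 1 WT cell held 51 of the 80 WT UMIs, so that without the highest cell of each genotype the ratio was 5.45. The counting interval does not cover this spread between cells. The ratio was 1.60 where members needed 2 Ccr9 UMIs and 5.37 where they needed a Cd8a UMI. The direction was the same in the 3 strata where Nr4a1 was found, with ratios of 2.14, 1.97 and 4.47 from low to high CD8 RNA, and the ratio was 1.34 (1.16 to 1.54) in mature CD4 cells.

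Other genes of the TCR response did not follow Nr4a1 closely. In the list, 3 of 24 passed 1.5-fold upward (Nr4a1, Tnfrsf9 and Itm2a) and 0 downward, and the median log2 ratio was 0.17, with 18 of the 24 ratios above 1. The median changed sign when members needed 3 CD8 UMIs (-0.27), when cells were thinned to 3000 UMIs (-0.12) and when members needed a Cd8a UMI (-0.011). Itm2a stood at 1444 CPM in WT and 2174 in I173A, a ratio of 1.51 (1.40 to 1.62), but the difference lay in the cells with 2 CD8 UMIs (1.83, 1.67 to 2.01). With 3 to 4 CD8 UMIs its ratio was 0.970 (0.830 to 1.13) and with 5 or more 0.947 (0.745 to 1.21), and it was 0.870 after thinning. Cd5, whose level reports TCR signal strength, stood at 296 and 335 CPM (1.13, 0.955 to 1.35), with ratios of 0.904 where 3 CD8 UMIs and 0.941 where a Cd8a UMI was required. Cd69, an early activation marker, stood at 137 and 154 (1.12, 0.873 to 1.45).

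In the list of glucocorticoid and FoxO responsive genes, 3 of 9 were at least 1.5-fold higher in I173A members (Tsc22d3, Ddit4 and Txnip) and 0 lower. The list's median log2 ratio of 0.064 was near that of all genes, with 7 of 9 ratios above 1. Tsc22d3, a glucocorticoid-induced gene, stood at 68.0 CPM in WT and 138 in I173A, a ratio of 2.03 (1.47 to 2.83). Ddit4, an inhibitor of mTORC1, stood at 172.6 and 304.6 CPM (1.77, 1.44 to 2.18), and Txnip at 251 and 407 (1.62, 1.36 to 1.93). Both Tsc22d3 and Ddit4 had ratios above 1 in all 4 strata. In mature CD4 cells their ratios were 2.34 and 2.10, so the difference was also present outside the members.

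All 11 of the mitochondrial fatty acid oxidation genes that entered had ratios above 1, and 3 of them passed 1.5-fold (Slc25a20, Acadvl and Etfb), with a median log2 ratio of 0.31. Over all genes that entered, 2850 of 5665 had ratios above 1. Acadvl, the very long chain acyl-CoA dehydrogenase, stood at 42.8 and 74.1 CPM (1.73, 1.14 to 2.68). Its ratio was below 1 in the members with DP-stage RNA (0.216, 0.023 to 1.01, from 10 and 2 UMIs) and above 1 in the other strata. In mature CD4 cells it was 1.22, in the DP gate 1.72 and in the CD8 gate 1.17. Cpt1a, which controls entry of fatty acids into mitochondria, had 6 UMIs in 6 WT members and 36 UMIs in 28 I173A members, or 7.6 and 37.0 CPM. Its ratio of 4.90 (2.05 to 14.2) lay beside 4.48 in mature CD4 cells, 6.32 in the DP gate and 3.57 in the CD8 gate. Srebf2, a regulator of cholesterol synthesis, was also higher (1.84, 1.20 to 2.88, and 2.81 after thinning), while none of the other 4 cholesterol genes that entered passed 1.5-fold.

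**Figure D3:**
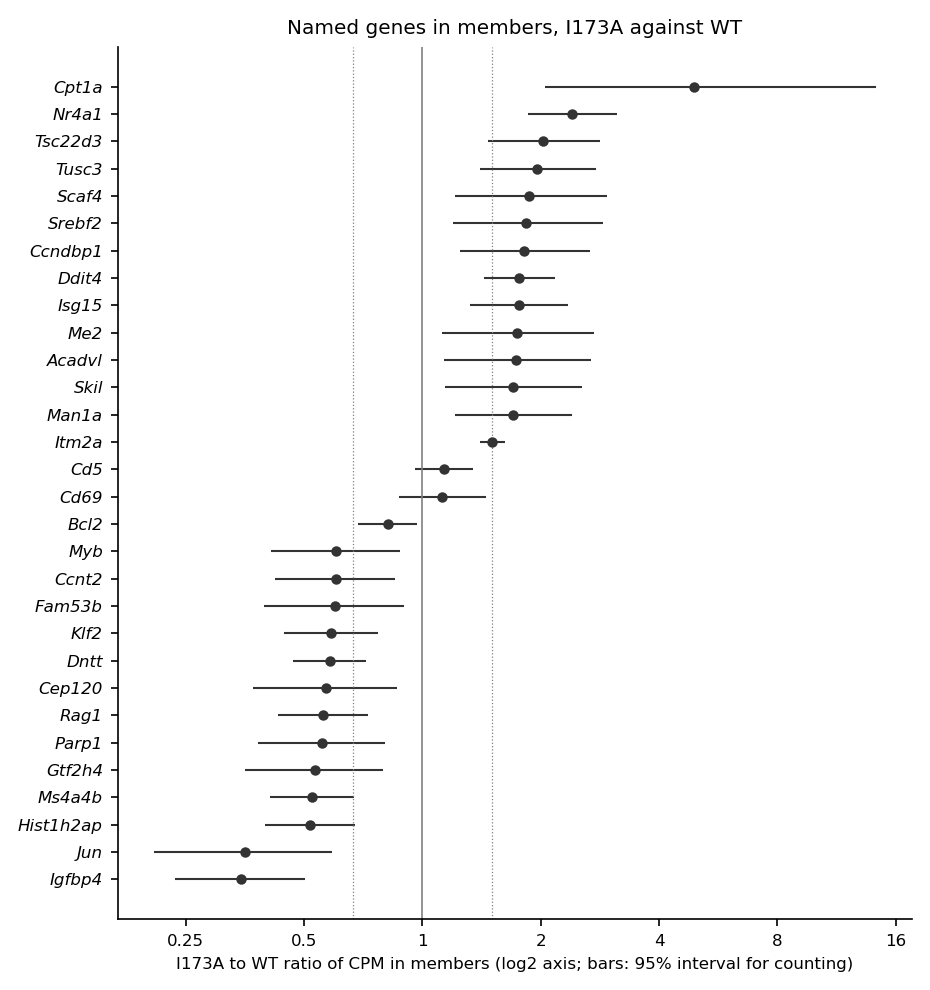
Ratio of I173A to WT levels in members (log2 axis) with 95% intervals for counting error. Shown are 24 genes named by ratio and 6 further genes, of which Cpt1a has the highest ratio drawn. The 24 are the highest and lowest among genes with at least 100 UMIs and an interval that left out 1. The solid line marks 1 and the dotted lines 1.5-fold. Nr4a1 lies at 2.40 and Tsc22d3 at 2.03, Jun and Igfbp4 lie near 0.35, and the intervals of Cd5 and Cd69 include 1.

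Among the lower genes, those of the DP stage formed a group: 6 of the 13 that entered passed 1.5-fold downward and 0 upward, with a median log2 ratio of -0.58. Rag1 stood at 180 CPM in WT and 101 in I173A (0.560, 0.429 to 0.729), and Dntt at 275 and 160 (0.581, 0.470 to 0.717, and 0.916 without members that had a Rag1, Rag2 or Ptcra UMI). Members with DP-stage RNA were 20.9% in WT and 13.7% in I173A. Without those cells the group's median was 0.18, and after thinning to 3000 UMIs per cell it was -0.013. Those cells had been chosen by 5 genes of this same list, so the change without them follows in part from the choice. The genes that enter the median need not be the same either. Myb, which is abundant at the DP stage, went from 0.604 to 1.58 without the cells with DP-stage RNA.

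Jun, an immediate early gene that also responds to tissue dissociation, stood at 66.8 CPM in WT and 23.7 in I173A members (0.355, 0.207 to 0.589). The stress list had 3 of 13 genes past 1.5-fold downward (Jun, Hsph1 and Klf6) and 0 upward. Jun was also lower in I173A in mature CD4 cells (0.344) and in the DP gate (0.418). Klf2 stood at 161 and 94.7 CPM (0.587, 0.444 to 0.774), with 0.426 in cells with 2 CD8 UMIs, but at 1.49 after thinning. Ms4a4b, a gene of late thymocyte maturation, stood at 215 and 113 CPM (0.526, 0.410 to 0.672). Its ratio was 0.870 where members needed 2 Ccr9 UMIs, 0.975 after thinning and 0.988 where they needed a Cd8a UMI, so that little of the difference was left. Igfbp4 stood at 125 and 43.2 (0.347), with the dominance of single cells given above and ratios of 0.113 after thinning and 1.20 where 3 CD8 UMIs were required. Isg15, an interferon-induced gene, was higher in I173A (92.0 and 162 CPM, ratio 1.76, 1.32 to 2.35), while 11 other interferon genes that entered did not pass 1.5-fold.

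A productive TCR α chain was found in 79.8% of WT and 86.3% of I173A members, and a β chain in 93.9% and 98.4%. In members with DP-stage RNA the α chain was found in 55.9% and 56.0%, between the 30.8% and 36.2% of the DP-gate cells and the 92.3% and 90.4% of mature CD4 cells. With 5 or more CD8 UMIs and fewer than 3 DP-stage UMIs it was found in 88.2% and 91.1%. Members with 2 α chains made up 7.98% (4.31 to 13.3) in WT and 13.7% (9.04 to 19.5) in I173A. No member carried the TRAV11 and TRAJ18 pair of invariant natural killer T cells (0 of 346).

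The α locus rearranges outward over time, and low TRAJ numbers lie farthest from the V segments. In WT members 56 of 143 α chains used TRAJ1 to TRAJ20 (39.2%, 31.1 to 47.7), against 42 of 183 in I173A members (23.0%, 17.1 to 29.7), and the median TRAJ numbers were 22 and 30. The WT share was above the I173A share in all 4 strata, with 9 of 20 and 3 of 15 chains in the cells with DP-stage RNA, and with 38.9% and 19.5%, 26.5% and 22.7%, and 48.6% and 29.8% from low to high CD8 RNA. In mature CD4 cells the shares were 24.1% and 22.6%, and in Ccr9 cells without CD8 RNA 28.9% and 28.7%. In Ccr9 cells with 1 CD8 UMI, just outside the rule, they were 27.3% and 30.1%, with I173A the higher. Among these classes the WT members had the highest share, and the I173A members lay at the level of the others; the difference was not tested.

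**Figure D4:**
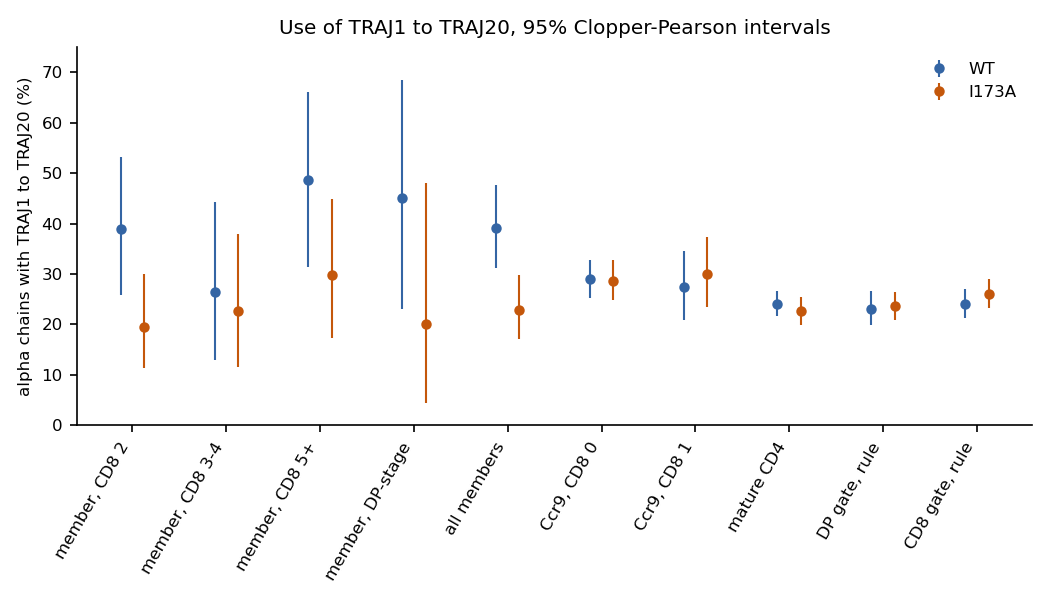
Percent of productive α chains that used TRAJ1 to TRAJ20, with 95% Clopper-Pearson intervals, in the strata of the members, in all members and in 5 comparison classes. WT members lie at 39.2% and I173A members at 23.0%, while the comparison classes lie between 22.6% and 30.1% in both genotypes.

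Few receptor sequences occurred in more than 1 member, and the rate of such repeats in other classes is not given here. Of 325 α sequences (V gene and CDR3 bases), 1 occurred in 2 members, and of 356 β sequences 1 occurred in 2. Other cells of the CD4, CD8 and DP gates also held 23 (7.08%), 14 (4.31%) and 8 (2.46%) of the α sequences. For β sequences these numbers were 6 (1.69%), 0 and 0. The α chain shared by members (TRAV6-3 with TRAJ12) belonged to 2 WT cells with different β chains. The β chain shared by members (TRBV19 with TRBJ2-7) belonged to a WT and an I173A cell with different α chains. They are shown as CDR3 bases because no pair of members shared a whole receptor.
Shared α CDR3: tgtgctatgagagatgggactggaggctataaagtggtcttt
Shared β CDR3: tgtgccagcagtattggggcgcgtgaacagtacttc

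Markers of other cell types were summed over the members. Over 9 myeloid and dendritic genes, WT members had 47.9 CPM and I173A members 200 CPM, with Lyz2 at 0 in both, 2 of 9 genes detected in WT and 8 of 9 in I173A. A single I173A cell held 161 of the 194 UMIs, and it also carried 4 Ccr9 and 3 CD8 UMIs in a total of 8458. Without the 3 WT and 3 I173A members that had at least 5 such UMIs, the share ratio was 1.31 and the ratio of Nr4a1 2.81. Genes of B cells summed to 12.6 and 16.5 CPM with Cd79a, Ms4a1 and Igkc at 0. These sums rest on 10 and 16 UMIs and were above the 2.7 and 2.8 CPM of mature CD4 cells. Genes of γδ and innate-like T cells summed to 5.0 and 4.1 CPM, against 7.4 and 11.3 in mature CD4 cells. The list for regulatory T cells summed to 174 and 217 CPM, against 190 and 264 in mature CD4 cells, with Foxp3 at 0 UMIs in WT. The list for cytotoxic and mature CD8 cells summed to 227 and 254 CPM, against 284 and 254 in mature CD4 cells. Most of it in members came from Ctsw (117 and 120 CPM) and from Runx3, with Klrd1 and Ccl5 at 0 in WT and Cst7 at 0 in I173A. The part of these genes in the results was not tested. Haemoglobin and keratin genes were at 0. Epcam, the remaining gene of the erythroid and epithelial list, had 7 UMIs in WT and 4 in I173A members. These were 8.8 and 4.1 CPM, against 4.8 and 8.0 in mature CD4 cells.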

How the data were processed

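The authors deposited raw UMI counts per gene and barcode, with hashtag counts in the same matrices, and tables of TCR contigs. The submitters' processing notes name Cell Ranger 6.0.1 and the build GRCm38 or mm10; software 3.1.0 is named per the file headers. Here counts were summed over all cells of a class and genotype, and each gene's sum was divided by that class total (CPM). Levels carry exact Poisson intervals, ratios exact conditional Poisson intervals, and shares exact Clopper-Pearson intervals, all at 95%. A gene entered a comparison with at least 50 UMIs over both groups. Genes named by ratio had at least 100 UMIs and were the 12 highest and 12 lowest whose interval left out 1 (between genotypes) or that were past 2-fold in both genotypes (between classes); 32 further genes and the extremes of 25 gene lists were added, and clone-named, segment, mitochondrial, ribosomal and haemoglobin genes left out. A few genes named from the ladder of CD8 RNA were chosen after their values were seen.

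The members and lists were chosen with earlier results of these data known. Barcodes with several hashtags were left out, no doublet caller was run, and doublets of 1 genotype remain. Hashtag 5, which has no genotype in the labels, entered no comparison. No cluster was computed. Promoter sequences and coordinates come from RefSeq GRCm38.p6, where 100 of 108 named genes were matched by symbol. Python 3.11.15, NumPy 2.4.6, SciPy 1.17.1, pandas 2.3.3 and Matplotlib 3.10.9 were used.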

Additional observations from a re-analysis of the deposited data

Results flagged for a closer look

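Cells with hashtag 5, which has no genotype in the labels, were in no comparison. In the CD4 gate 158 of 2829 of them met the RNA rule (5.585%, 4.77 to 6.50), between the WT and the I173A share. Their levels were 213 CPM for Nr4a1, 1189 for Itm2a, 6.3 for Cpt1a and 40.4 for Jun, so that Cpt1a lay near the WT members and Nr4a1 near the I173A members.

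For 5 genes the ratio of I173A to WT in members lay on the other side of 1 from that in cells of another gate that met the same RNA rule, with both intervals leaving out 1; the difference between the gates was not tested. Isg15 had a ratio of 1.76 in members and 0.781 in the DP gate. Gtf2h4, a subunit of the transcription factor TFIIH, had a ratio of 0.532 in members and 1.07 in the DP gate. Its ratio was 0.946 without members that had 3 or more DP-stage UMIs, and 1.09 after thinning to 3000 UMIs. Dntt had a ratio of 0.581 in members (0.916 without those that had a Rag1, Rag2 or Ptcra UMI) and 1.32 in the CD8 gate. Klf2 had a ratio of 0.587 in members (1.49 after thinning) and 1.12 in the CD8 gate. For Gtf2h4 and Klf2 the direction in members was thus not stable. The ratio of Dntt changed in size but stayed below 1 in all alternatives. Bcl2 had a ratio of 0.817 in members and 1.09 in the CD8 gate.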

How the results depend on the processing

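With 1 sample per genotype no replicate could be left out. No paired analysis was possible because each genotype is 1 sample per gate: the single pair of genotypes in a library leaves no second pair. Over 10 alternatives, 3 of them added after seeing the data, the share ratio stayed within its interval, and TRAJ1 to TRAJ20 stayed within the intervals of both genotypes. Of 494 values for 31 single genes (16 alternatives, 4 of them added), 451 lay inside the interval of the original ratio, 30 outside it on the same side of 1, and 13 outside it on the other side of 1. The limits of 20 and 100 UMIs per gene cannot change a gene's own ratio. Settings that changed the total or set the median ratio to 1 rescaled all genes alike, and only slightly. Part of the 451 values therefore lay inside by construction. The number of genes at least 1.5-fold higher, 208, became 120 with 3 CD8 UMIs, 114 after thinning to 3000 UMIs, 611 with genes from 20 UMIs and 47 with genes from 100. The number lower, 158, became 455 from 20 UMIs, 38 from 100 and 244 with the mean of the cells' own CPM. Against mature CD4 cells, thinning gave 145 higher and 137 lower genes in place of 283 and 227.

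The DP-stage median of -0.58 became -0.013 after thinning, 0.15 without members that had a Rag1, Rag2 or Ptcra UMI and 0.18 without members that had 3 DP-stage UMIs. The settings without such members chose cells by genes of the same list, so part of that change follows from the choice. The TCR signal median of 0.17 became -0.27 with 3 CD8 UMIs, -0.12 after thinning and -0.011 with a Cd8a UMI. After thinning, the ratio was 0.457 for Zbtb7b, 0.986 for Me2, 1.09 for Gtf2h4, 1.49 for Klf2, 1.07 for Myb and 0.870 for Itm2a. With 3 CD8 UMIs it was 0.771 for Zbtb7b, 0.904 for Cd5, 0.829 for Egr1, 1.20 for Igfbp4 and 0.941 for Itm2a, with a Cd8a UMI it was 0.941 for Cd5, and without members that had 3 DP-stage UMIs it was 1.58 for Myb. Thinning left 86 WT and 109 I173A members. The causes were not tested.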
